A study of Mus musculus with 2 samples.

Results

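Of 37074 gene names on the array, 10 are those of *Cp*, *Trf*, *Tfrc*, *Fth1*, *Slc40a1*, *Slc39a14*, *Slc30a1*, *Mt1*, *Mt2* and *Mt3*, genes of iron, zinc and metallothionein biology. Every probe that carries one of these symbols was taken, which gave 18 probes, each printed in 1 spot. Their levels were compared between 2 arrays of striatal RNA, 1 for each genotype. The WT array held a pool of 2 male mice labelled C57BL/6J, which the methods describe as non-mutant offspring of heterozygous parents, and the Cx30 KO array held a pool of 2 male mice labelled Cx30-LacZ, homozygous for the knockout of connexin 30, a gap junction protein of astrocytes. At the age of 8 weeks all mice were given MPTP, a toxin of dopaminergic neurons, in 4 doses of 20 mg/kg spaced 2 h apart, and tissue was taken on day 1 after the last dose. Since MPTP was given to both genotypes, no response to the toxin itself was measured, and every value sets Cx30 KO against WT.

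Iron travels outside cells bound to transferrin and enters them through the transferrin receptor, or unbound through transporters of the ZIP family such as *Slc39a14*. Ferritin stores it inside cells, ferroportin, encoded by *Slc40a1*, releases it, and the copper enzyme ceruloplasmin oxidises it for loading onto transferrin. In the brain, transferrin mRNA is made mainly by oligodendrocytes and the choroid plexus, and the membrane-anchored form of ceruloplasmin is known from astrocytes. Metallothioneins are small cysteine-rich proteins that bind zinc and copper, with *Mt1* and *Mt2* induced in glia by metals, glucocorticoids and injury and *Mt3* found mostly in the nervous system.

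Each level is the processed signal of a probe in arbitrary units, followed by the error that the scanner software gives for that spot. The log2 ratio is Cx30 KO minus WT after each array was scaled to its 75th percentile (401.2 in WT and 381.8 in Cx30 KO), so that values below 0 stand for less signal in Cx30 KO. The study's limits for lower levels are a ratio of 0.66 or less together with a Z-score of −2.0 or less. For higher levels they are a ratio of 1.5 or more together with a Z-score of 2.0 or more. The methods name no set of probes for the Z-score, which here places a log2 ratio among those of the 1000 probes nearest in mean signal. On the log2 scale the ratio limits are −0.60 and 0.58. Each genotype has 1 array, so there are no replicates, no test was possible, and the precision is limited by the number of arrays. Probes printed repeatedly gave an SD of 0.06 for a log2 ratio within this pair of arrays (295 probes), log2 ratios from separate probes of one gene varied with an SD of 0.26 (7137 genes), and the software error of a bright probe's log2 ratio was 0.20. None of these covers the variation between mice. Both arrays lay on 1 slide, and no spot (0) was saturated.

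The deleted gene checked the labels. *Gjb6*, which encodes connexin 30, gave 1788 ± 179 in WT and 111 ± 11.6 in Cx30 KO at its brighter probe, a log2 ratio of −3.94, and its other probe was at least 4.33-fold lower. All 9 striatal neuron markers were well above background on both arrays, led by *Penk* with 163257 in WT and 169777 in Cx30 KO.

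Of the 18 probes, 16 were well above background on both arrays, and a probe or gene is called detected where this held for 1 array or both. The ratio and Z-score limits for lower levels were passed by 4 of the 16, which belong to *Trf* (2 probes), *Slc39a14* and *Cp*, against 2.93% of all 33910 detected probes. No probe (0 of 16) passed the limits for higher levels, against 2.07% of all detected probes. By ratio alone, 5 of the 16 were lower, against 5.98%, and 0 of 16 were higher, against 7.7%. The median log2 ratio of the 16 probes was −0.09, beside 0.04 for all detected probes. With each gene at its brightest probe, 2 of 10 genes were lower (*Trf* and *Slc39a14*), against 3.38% of 22043 detected genes, and 0 of 10 were higher, against 2.37%. The 10 genes then had a median log2 ratio of −0.02, beside 0.03 for all detected genes. The plot of the signals on both arrays shows that most pairs of points nearly coincide, apart from those of *Trf*, *Slc39a14*, the lower *Cp* probes and *Slc40a1* probe 2, which was not well above background on either array.

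**Figure D1:**
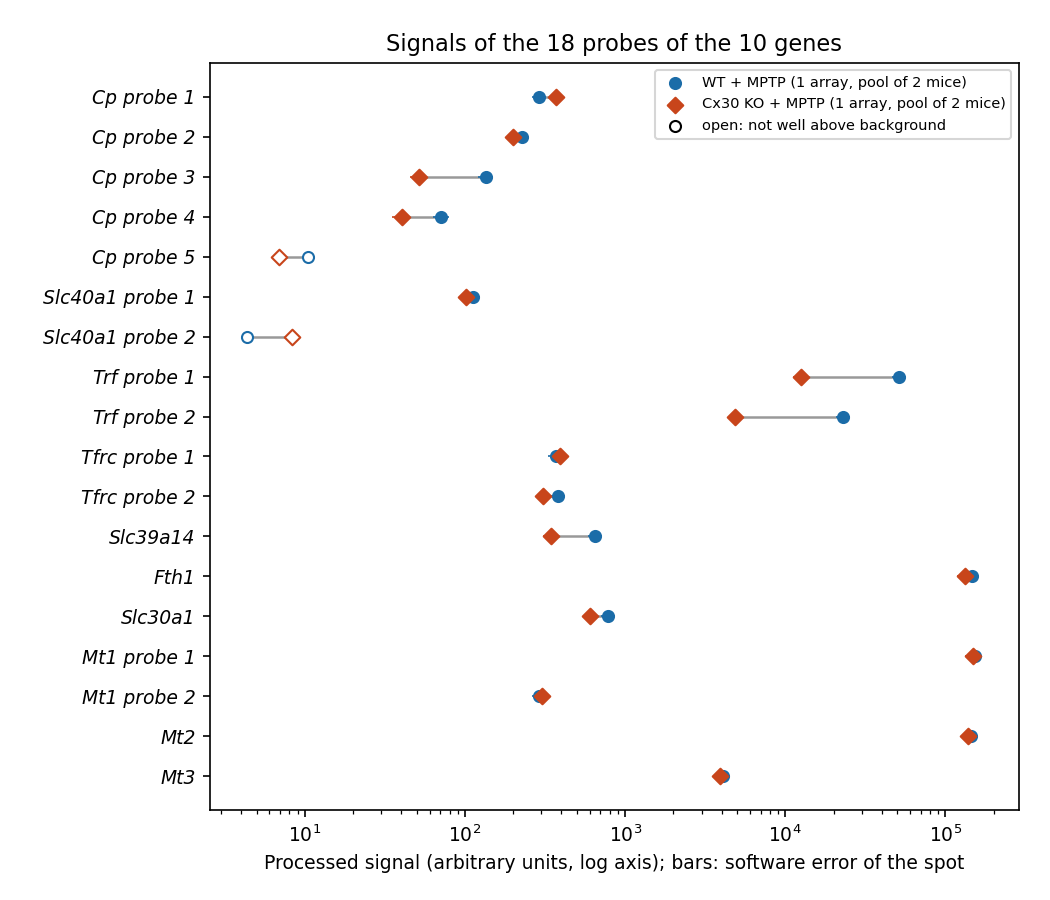
Processed signal (log axis, arbitrary units) of each of the 18 probes in WT (circles) and Cx30 KO (diamonds) after MPTP, 1 array of 2 pooled mice each. Bars are the software error of the spot, mostly hidden by the symbols, and open symbols, drawn without bars, were not well above background. The 2 *Trf* probes are far apart between the genotypes, whereas *Mt1*, *Mt2*, *Mt3* and *Fth1* nearly coincide.

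The statements on *Trf* and *Cp* rest on separate probes of one gene, so 3 of the probe sequences are shown as they stand in the array files, in the sense of the mRNA and in coding sequence, with no part singled out. The first detects *Trf* (chr9:103112826-103112885, minus strand, mm9), the second *Cp* at a stretch shared by 3 RefSeq transcripts (chr3:19874934-19874993, plus strand, mm9) and the third *Cp* at a stretch listed for 1 RefSeq transcript (chr3:19889071-19889130, plus strand, mm9).
Trf probe 2: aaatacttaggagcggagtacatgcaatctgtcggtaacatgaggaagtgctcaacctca
Cp probe 3: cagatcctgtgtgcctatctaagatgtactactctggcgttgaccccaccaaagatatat
Cp probe 2: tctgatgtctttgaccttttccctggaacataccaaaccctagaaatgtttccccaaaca

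*Trf*, which encodes the iron carrier transferrin, had the lowest log2 ratios of the 10 genes. Its brighter probe (probe 1, chr9:103111207-103111266, minus strand, mm9) had 51486 ± 5149 in WT and 12493 ± 1249 in Cx30 KO, so that its log2 ratio was −1.97 ± 0.20 and a 3.92-fold lower level. Probe 2, whose sequence is given above, had 23011 ± 2301 in WT and 4845 ± 485 in Cx30 KO, so that its log2 ratio was −2.18 ± 0.20 and a 4.52-fold lower level. The probes differed by 0.20 in log2 ratio, less than the SD of 0.26 between probes of one gene, and their Z-scores were −10.3 and −10.3, or −3.32 and −3.67 when taken over all probes. Among the 1545 genes with a WT signal of at least 10000, 0 had a log2 ratio below that of *Trf*, and 20 of them (1.29%) passed the limits for lower levels. The log2 ratios of these bright genes had an SD of 0.19. Among all 22043 detected genes, 278 had a lower log2 ratio, so ratios as low were found at dimmer probes. The plot of log2 ratio against mean signal shows both *Trf* probes apart from other probes of like brightness.

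**Figure D2:**
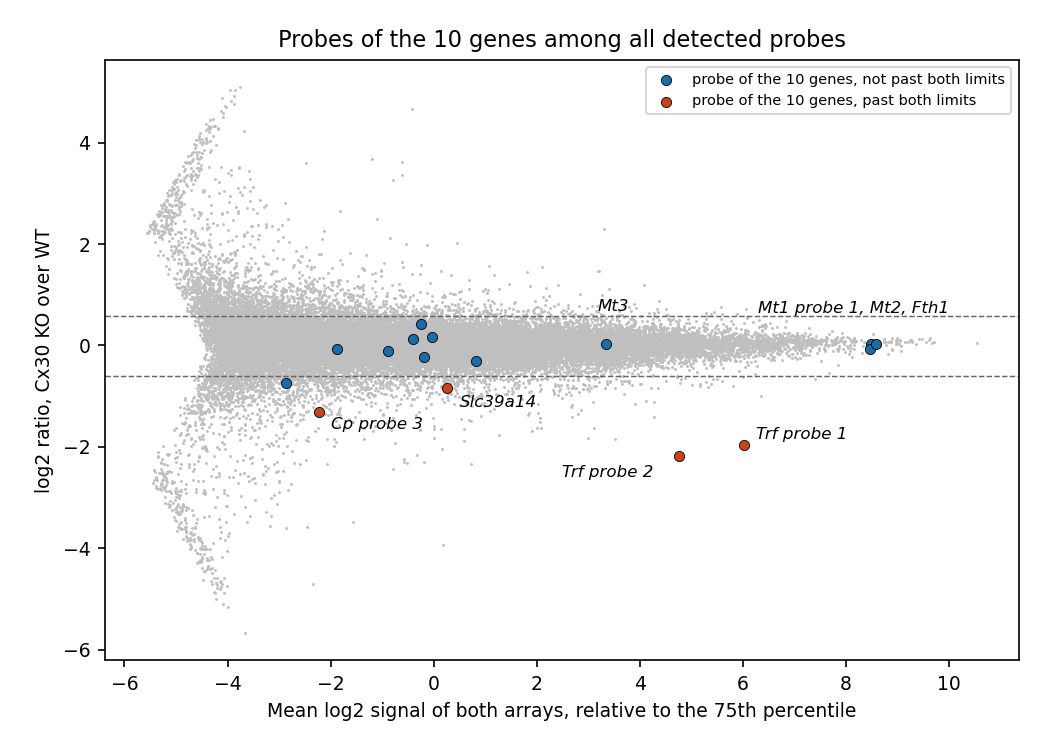
log2 ratio of Cx30 KO over WT against the mean log2 signal of both arrays relative to the 75th percentile, for all 33910 detected probes (grey) and the 16 detected probes of the 10 genes (coloured). Dashed lines are the ratio limits of 0.66 and 1.5. The *Trf* probes lie at −1.97 and −2.18 where the grey cloud is narrow, while *Slc39a14* and *Cp* probe 3 lie nearer to its edge.

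Markers of the cells that make transferrin also differed between the pools. In bulk tissue, fewer cells of a type and less RNA per cell cannot be told apart. At their brightest probes, all 9 oligodendrocyte markers had log2 ratios below 0, with a median of −0.74. The limits for lower levels were passed by 6 of 9, against 3.38% of all detected genes. Their signals added up to 93628 in WT and to 62099 in Cx30 KO, of which *Mbp*, a major protein of myelin, gave 20162 in WT against 11582 in Cx30 KO (−0.73) at its brightest probe, with −0.72 and 0.12 at its other probes. *Ugt8a*, which makes the myelin lipid galactosylceramide, had −1.43 and *Cldn11*, a tight junction protein of myelin, had −1.12, while *Mog* (−0.91), *Opalin* (−0.81) and *Mag* (−0.74, with 0.24 at its other probe) also passed the limits. *Cnp* (−0.58, with a mean of −0.20 over its 2 probes) and *Mobp* (−0.44) did not at their brightest probes, although the other *Mobp* probe did (−0.78). *Ermn*, the brightest of the list, did not pass either, with 21313 in WT and 19813 in Cx30 KO (−0.03). None of the markers (0 of 9) had a log2 ratio below that of *Trf*, whose difference from their median was −1.23. All 4 markers of oligodendrocyte precursors were below 0 at their brightest probes, with a median of −0.44 and the brightest, *Gpr17*, at −0.53. Of these, 0 of 4 passed the limits for lower levels, against 3.38% of all detected genes. The part of oligodendrocyte content in the *Trf* value was not tested.

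Of 8 choroid plexus markers, 5 were detected, whereas *Kcnj13*, *F5* and *Sostdc1* were not. Their signals added up to 1629 in WT and to 1369 in Cx30 KO. *Ttr*, which encodes transthyretin, had 304 ± 30.7 in WT and 120 ± 12.7 in Cx30 KO and was the single gene of this list past the limits (−1.27). Among all detected genes 3.38% were lower past the limits, and for 5 detected genes 1 is not far from this share. The brightest, *Clic6*, gave most of each sum and had −0.02, *Folr1* had −0.58 and *Kl* had 0.23. *Otx2*, with 16.3 in WT and 30.2 in Cx30 KO, was well above background in Cx30 KO only. Haemoglobin transcripts, known chiefly from red blood cells, were lower in Cx30 KO as well. All 4 detected genes of a list of 6 red blood cell genes passed the limits, against 3.38% of all detected genes. Their median was −2.15, or −1.63 with genes detected in WT only set to their bound. The signals of these genes added up to 5985 in WT against 1812 in Cx30 KO. *Hba-a1* had 2976 in WT and 915 in Cx30 KO (−1.63), its near-identical copy *Hba-a2* shared the pattern (−1.63), and *Hbb-b1* and *Hbb-b2*, not well above background in Cx30 KO, were at least 2.33-fold and 6.36-fold lower. *Alas2* and *Slc4a1* were not well above background on either array. Cortical neuron markers were higher in Cx30 KO, with 4 of 5 past the limits for higher levels, against 2.37% of all detected genes. Their median was 3.22, or 2.50 when *Slc17a7* and *Neurod6*, which were not well above background in WT, are set to their bound. Their signals added up to 196 in WT and to 1358 in Cx30 KO, the brightest was *Neurod2* with 49.0 in WT and 594 in Cx30 KO (3.67), *Tbr1* had 2.50, and *Rorb* had −0.02. The part of these differences in the *Trf* value was not tested.

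**Figure D3:**
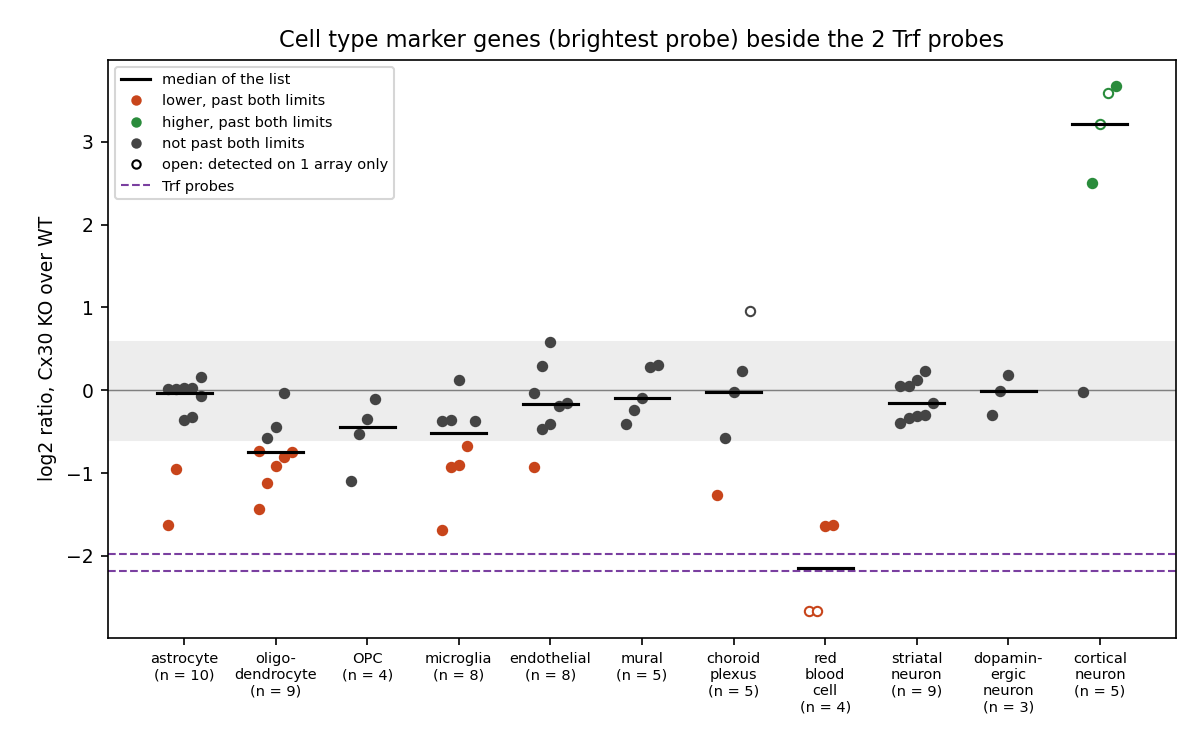
log2 ratio of Cx30 KO over WT for marker genes of 11 cell types at their brightest probe (points), with the median of each list (bars), the range between the ratio limits (grey band) and the 2 *Trf* probes (dashed lines). Open points were well above background on 1 array only. The dashed lines lie below all 9 oligodendrocyte markers and within the range of the haemoglobin genes.

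*Tfrc*, which encodes the receptor that takes up iron-loaded transferrin, was at similar levels on both arrays. Its probe 1 (chr16:32620470-32620529, plus strand, mm9) had 369 ± 37.2 in WT and 393 ± 39.5 in Cx30 KO, or a log2 ratio of 0.16. Its probe 2 (chr16:32632255-32632314, plus strand, mm9) had 380 ± 38.3 in WT and 308 ± 31.1 in Cx30 KO, or a log2 ratio of −0.23. The signs of the probes differ, and both values lie within the SD of 0.26 between probes of one gene.

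*Slc39a14*, the ZIP14 transporter of iron, zinc and manganese, was lower in Cx30 KO. Its single probe (chr14:70703394-70703453, minus strand, mm9), listed for 3 RefSeq transcripts, had 647 ± 64.9 in WT and 343 ± 34.5 in Cx30 KO. This gave a log2 ratio of −0.84 ± 0.20, a 1.80-fold lower level, with a Z-score of −2.51. *Slc39a14* was the one gene of the 10 on chromosome 14, which also carries *Gjb6*, and its probe lies 12.96 Mb from that of the deleted gene. With the Z-score taken over all probes it no longer passed the limits.

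*Cp*, which encodes ceruloplasmin, gave different answers at different probes. Probe 1 (chr3:19869171-19869230, plus strand, mm9), the brightest, had 291 ± 29.6 in WT and 371 ± 37.4 in Cx30 KO, or a log2 ratio of 0.42 ± 0.21. It is listed for an Ensembl transcript and for 0 RefSeq transcripts. Probe 2 had 226 ± 23.1 in WT and 200 ± 20.5 in Cx30 KO, or a log2 ratio of −0.10 ± 0.21. Probe 3, the one that matches 3 RefSeq transcripts, had 135 ± 14.1 in WT and 51.7 ± 6.31 in Cx30 KO, so that its log2 ratio was −1.31 ± 0.23 with a Z-score of −3.24, and passed the limits. Probe 4 (chr3:19909387-19909446, plus strand, mm9), listed for 1 RefSeq transcript, had 71.0 ± 8.20 in WT and 40.2 ± 5.40 in Cx30 KO, so that its log2 ratio was −0.75 ± 0.26 with a Z-score of −1.50. Probe 5 (chr3:19907511-19907570, plus strand, mm9), listed for another RefSeq transcript, was not well above background on either array (10.5 in WT and 6.93 in Cx30 KO).

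The 4 detected *Cp* probes spanned 1.73 in log2 ratio, which is several times the SD of 0.26 between probes of one gene. The sign of *Cp* at gene level followed the choice of probe, being positive at the brightest probe and negative at the probe with the most RefSeq transcripts. The log2 ratio of probe 3 was −0.71 with the normexp background correction followed by quantile normalisation, and it passed the limits there too. Among 10 astrocyte markers, *Gfap* had 6091 ± 609 in WT and 1881 ± 188 in Cx30 KO (−1.62) and *Aqp4* had 889 ± 89.0 and 438 ± 43.9 (−0.95). These 2 of 10 passed the limits for lower levels at their brightest probes, against 3.38% of all detected genes. The other *Aqp4* probes passed too, except 1 with 0.02. The other 8 markers did not, and the list's median was −0.03. Its summed signal was 186997 in WT against 165651 in Cx30 KO, with most of each sum from *Aldoc*, the brightest (−0.07).

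*Slc40a1*, which encodes the iron exporter ferroportin, had 112 ± 11.9 in WT and 102 ± 10.8 in Cx30 KO at probe 1 (chr1:45965255-45965314, minus strand, mm9), a log2 ratio of −0.06 ± 0.22. Its probe 2 (chr1:45980637-45980696, minus strand, mm9) was not well above background on either array, with 4.33 in WT and 8.29 in Cx30 KO, and gives no ratio. *Fth1*, the heavy chain of ferritin, had 146049 ± 14605 in WT and 131692 ± 13169 in Cx30 KO (chr19:10059485-10059544, plus strand, mm9), or a log2 ratio of −0.08 ± 0.20. Processed copies of *Fth1* in the genome may share sequence with its probe, so the value may include their transcripts. Both differences were smaller than the software error.

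**Figure D4:**
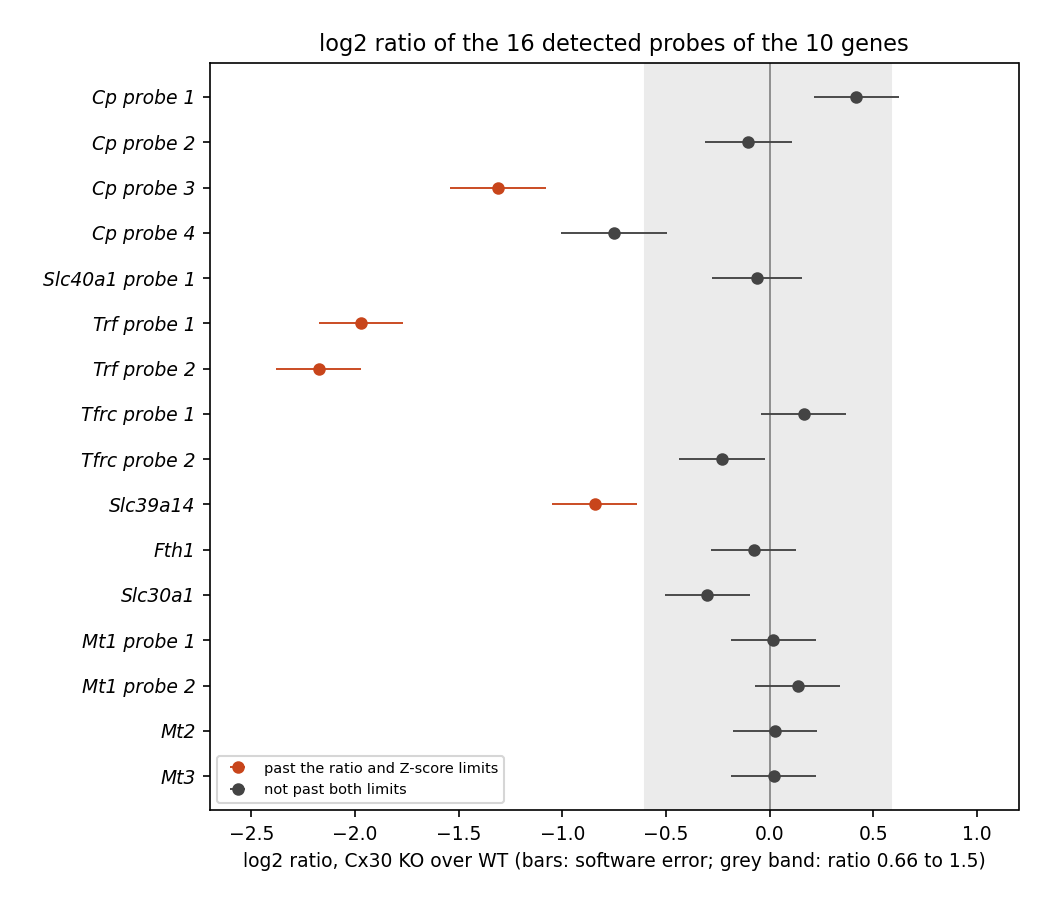
log2 ratio of Cx30 KO over WT for each of the 16 detected probes, with bars for the software error and a grey band for ratios between 0.66 and 1.5. Probes past both limits are in orange. *Cp* spreads from 0.42 to −1.31 over its detected probes, whereas both *Trf* probes lie near −2 and the 4 metallothionein probes near 0.

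The metallothioneins were at nearly equal levels on both arrays. *Mt1* had 153174 ± 15317 in WT and 147603 ± 14760 in Cx30 KO at probe 1 (chr8:96704165-96704224, plus strand, mm9), a log2 ratio of 0.02 ± 0.20. Its probe 2 (chr8:96703844-96703903, plus strand, mm9), listed for a predicted transcript only, had 290 ± 29.3 in WT and 303 ± 30.5 in Cx30 KO, or a log2 ratio of 0.14 ± 0.21. *Mt2* had 143536 ± 14354 in WT and 139005 ± 13901 in Cx30 KO (chr8:96697371-96697430, plus strand, mm9), or a log2 ratio of 0.03 ± 0.20. *Mt3*, whose zinc-binding protein is abundant in brain, had 4060 ± 406 in WT and 3915 ± 391 in Cx30 KO (chr8:96677927-96677986, plus strand, mm9), or a log2 ratio of 0.02 ± 0.20. The 4 probes lie within 26.3 kb of one another. Every difference was below its software error, and the values of *Mt1* probe 1, *Mt2* and *Mt3* took the opposite sign when each array was scaled to its median, at −0.03, −0.02 and −0.03, and *Mt1* probe 1 also with quantile normalisation (−0.02) and the authors' values (−0.02), so no direction is given for them. *Mt1* and *Mt2* are similar in sequence, and how far each probe also detects the other gene was not tested.

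*Slc30a1*, which encodes the ZnT1 exporter of zinc from the cell, had 785 ± 78.6 in WT and 606 ± 60.7 in Cx30 KO (chr1:193736760-193736819, plus strand, mm9). Its log2 ratio of −0.30 ± 0.20 did not pass the limits. *Mtf1*, the zinc-sensing transcription factor that is known to induce *Mt1*, *Mt2* and *Slc30a1*, had 2362 ± 236 in WT and 2340 ± 234 in Cx30 KO, or a log2 ratio of 0.06. *Mt4* was not well above background on either array.

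Because *Mt1*, *Mt2* and *Slc30a1* are known targets of the same factor, the 250 bases before their RefSeq start sites are shown (GRCm38.p6, plus strand), at chr8:94178839-94179088, chr8:94172368-94172617 and chr1:191906531-191906780. Capitals mark matches to the core of the metal response element, searched as TGCACNC or TGCGCNC on both strands, where a match on the minus strand appears as its reverse complement.
Mt1: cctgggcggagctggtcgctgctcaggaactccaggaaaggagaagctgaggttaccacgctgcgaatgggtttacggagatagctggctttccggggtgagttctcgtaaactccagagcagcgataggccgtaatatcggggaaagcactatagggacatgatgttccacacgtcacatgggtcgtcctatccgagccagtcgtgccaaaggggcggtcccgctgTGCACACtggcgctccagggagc
Mt2: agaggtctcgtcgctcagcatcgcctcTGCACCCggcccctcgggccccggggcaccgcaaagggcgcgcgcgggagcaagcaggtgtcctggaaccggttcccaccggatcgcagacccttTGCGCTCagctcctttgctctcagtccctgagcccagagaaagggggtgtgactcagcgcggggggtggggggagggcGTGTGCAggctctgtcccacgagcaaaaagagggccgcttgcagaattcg
Slc30a1: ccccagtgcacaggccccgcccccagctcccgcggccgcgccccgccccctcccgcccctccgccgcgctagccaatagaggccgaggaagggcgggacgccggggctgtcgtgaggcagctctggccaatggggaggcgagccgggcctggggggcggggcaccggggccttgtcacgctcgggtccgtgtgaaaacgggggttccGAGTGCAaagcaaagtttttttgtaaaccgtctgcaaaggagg
Over the full windows of 300 bases, which end 50 bases after the start, *Mt1* held 3 matches, *Mt2* held 4, *Slc30a1* held 2 and *Mt3* held 1. At least 1 match was present in 25.7% of all 32851 promoter windows of this length, at least 2 in 7.11%, at least 3 in 1.97% and at least 4 in 0.517%. Windows were found for 7 of the 10 genes, and those of *Cp* and *Fth1* held 0 matches while 1 of the 2 starts of *Tfrc* held 2. A match describes letters in a window and is not a measured binding site.

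Most other genes of iron and haem handling lay within the limits. Of 63 listed genes, 55 were detected, of which 2 were lower and 0 higher past the limits, a share close to the 3.38% of all detected genes, and their median log2 ratio was −0.09. *Hmox1*, the inducible enzyme that frees iron from haem, had 4271 ± 427 in WT and 2283 ± 228 in Cx30 KO, so that its log2 ratio was −0.83 with a Z-score of −2.97. *Steap2*, a metalloreductase, had 87.9 ± 10.1 in WT and 44.7 ± 6.26 in Cx30 KO (−0.91). *Steap2* did not pass the limits with normexp and quantile normalisation, whereas *Hmox1* did (−0.82). Neither gene passed with a Z-score over all probes or with a ratio of 2 or 0.5. The haem genes as a group had a median of 0.02 over 18 detected members.

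The other iron genes named here did not pass the limits at their brightest probe. *Ftl1*, the light chain of ferritin, had 73083 ± 7308 in WT and 70971 ± 7097 in Cx30 KO, or a log2 ratio of 0.03, and *Cisd1*, an iron-sulphur protein of the mitochondrial surface, had −0.21. The iron regulatory proteins, which bind iron-responsive elements in ferritin and transferrin receptor mRNAs, had −0.26 (*Aco1*) and 0.09 (*Ireb2*). *Slc11a2*, the DMT1 importer, had −0.01, with −0.19, −0.27 and −0.39 at its other probes. *Heph*, the membrane relative of ceruloplasmin, had −0.29 at its brightest probe and −0.65 at the other, and neither passed the limits. Both *Heph* probes are listed at the same position, so they do not read separate sites of the mRNA. *Hfe*, which modulates transferrin receptor signalling, had −0.57, and *Hamp*, which encodes the iron hormone hepcidin, was not well above background on either array.

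*Slc39a8*, *Slc25a37* and *Fbxl5* differed between their own probes, and the last 2 were singled out after their values were seen. *Slc39a8*, the closest relative of *Slc39a14*, had −0.17 at its brightest probe, whereas its other probe, with 132 in WT and 12.9 in Cx30 KO, where it was not well above background, was at least 7.23-fold lower. *Slc25a37*, the mitochondrial iron importer mitoferrin 1, had −0.41 at its brightest probe and 0.17 at a dim one. Its other probes were lower past the limits, at 297 ± 30.0 in WT and 78.6 ± 8.61 in Cx30 KO (−1.85) and at least 2.14-fold lower. *Fbxl5*, which directs iron regulatory protein turnover, had 0.03 and −0.06 at 2 probes and was at least 4.62-fold lower at the third. *Slc25a28*, mitoferrin 2, also chosen after its value was seen, had 2126 ± 213 in WT and 3020 ± 302 in Cx30 KO, so that its log2 ratio was 0.58 with a Z-score of 2.17, just inside the ratio limit.

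The other genes of zinc and copper handling, a list that leaves out the 10 genes and *Slc39a8*, were within the limits at their brightest probes. Of 35 listed genes, 30 were detected, with 0 lower, against 3.38% of all detected genes, and 0 higher, against 2.37%. For a list of this size, 0 is close to these shares. The median log2 ratio of the list was −0.12. The 7 detected exporters of the Slc30a family other than *Slc30a1* had a median of −0.15, with *Slc30a4* the lowest (−0.47), and the 10 detected importers of the Slc39a family other than *Slc39a14* and *Slc39a8* had a median of −0.26, with *Slc39a12*, known from astrocytes, the lowest of these (−0.46). The 12 copper genes had a median of −0.02, and the brightest, the chaperones *Cox17* and *Atox1*, had −0.02 and −0.08. *Atp7a*, the copper pump that supplies enzymes in the secretory pathway, had −0.46 at its brightest probe and −0.71 at the other, which passed the ratio limit alone. The plot of these lists by role shows *Hmox1* and *Steap2* below the band between the ratio limits together with *Steap1* (−0.66) and *Flvcr2* (−0.68), which passed the ratio limit alone, and *Hp*, which encodes haptoglobin, at the upper edge of the band (0.60), past the ratio limit alone.

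**Figure D5:**
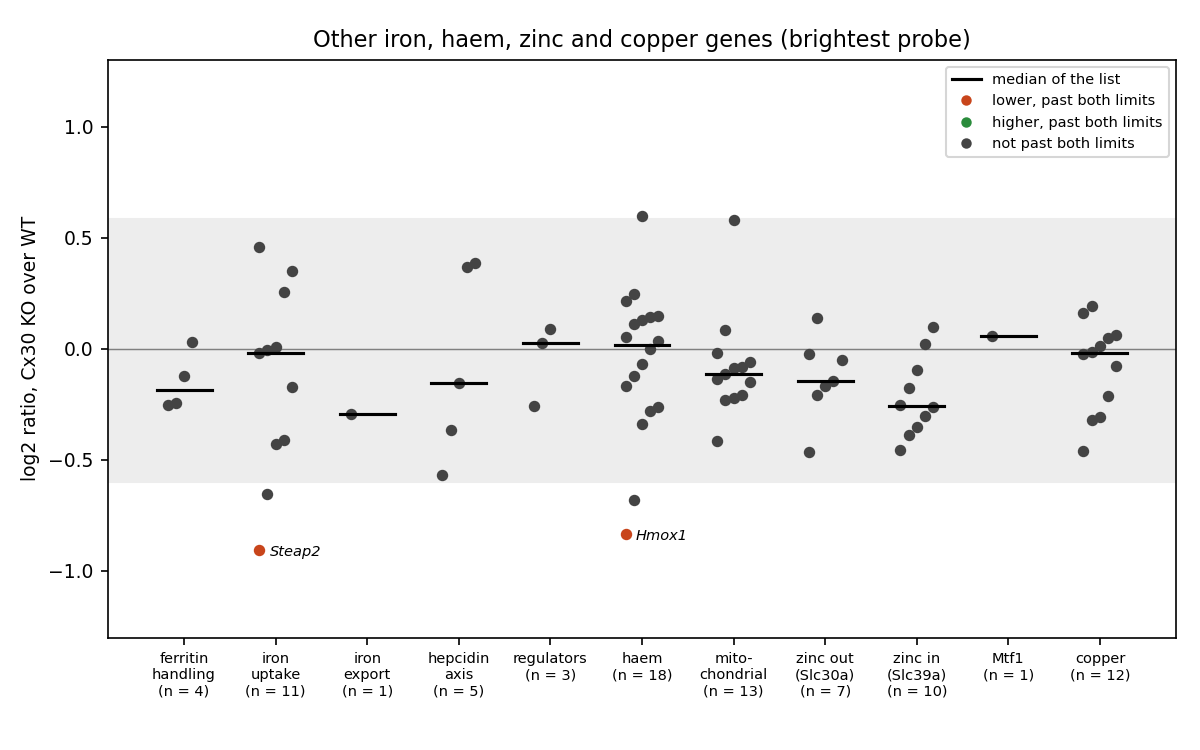
log2 ratio of Cx30 KO over WT for 55 other iron and haem genes and 30 other zinc and copper genes at their brightest probe (points), by role, with the median of each group (bars) and the range between the ratio limits (grey band). The 2 genes past both limits are named, and no gene passed the limits for higher levels.

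Other cell types of the tissue were read from their own markers. Of 8 microglia markers, 4 passed the limits for lower levels, against 3.38% of all detected genes. The list had a median of −0.52 and a summed signal of 91249 in WT against 83919 in Cx30 KO. The 4 past the limits were *P2ry12* (−1.69), *Aif1* (−0.93), *Tmem119* (−0.90) and *Cx3cr1* (−0.67, with −0.56 at its other probe). The brightest marker, *Itgam*, had 60045 in WT and 62438 in Cx30 KO (0.13) and gave most of each sum. Of 8 endothelial markers 1 was lower, *Flt1* (−0.93, with −0.15 and 0.52 at its other probes), against 3.38% of all detected genes. For a list of this size, 1 is not far from that share. The endothelial list had a median of −0.17 and a summed signal of 19012 in WT against 15982 in Cx30 KO. Its brightest marker, *Ly6c1* (−0.15), gave most of each sum. The 5 mural markers had a median of −0.10, the 9 striatal neuron markers −0.16, and the 3 detected of 4 dopaminergic markers −0.01. In these lists none (0) passed the limits, against 3.38% lower and 2.37% higher among all detected genes. The brightest mural marker was *Vtn* (−0.10) and the brightest dopaminergic marker was *Th*, the rate-limiting enzyme of dopamine synthesis (−0.01).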

How the data were processed

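The authors hybridised amplified, Cy3-labelled RNA to Agilent 60-mer arrays and extracted spot signals with Agilent Feature Extraction, given as version 9.5.1.1 in the methods and 10.7.1.1 in the file headers. The deposited processed signals are linear intensities in arbitrary units, background-subtracted and detrended within each array but not normalised between arrays. The authors' table of signal values was 99.991% within 1% of the quantile-normalised processed signals. Probe positions refer to mm9.

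Control spots and outlier spots were left out, log2 processed signals were averaged over the spots of a probe, and each array was scaled by its 75th percentile. A probe was detected when at least 50% of its spots were well above background (signals of at least 19.8 in WT and 17.4 in Cx30 KO) on at least 1 array, and of 56605 probes 56.6% were above background in WT, 58.2% in Cx30 KO. A gene was represented by its brightest detected probe. Where 1 array only was above background, the fold is at least the brighter value over the higher of that array's lowest detected signal and the probe's own value. The calculations used Python 3.11.15, pandas 2.3.3 and limma 3.58.1 in R 4.3.3, and were tested on simulated data.

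The 10 genes and the lists were chosen with earlier results of these data known. Named were all probes of the 10 genes, genes past the limits in each list, 10 regulators and partners such as *Aco1*, *Slc11a2*, *Heph* and *Hfe*, the 2 brightest other genes of each metal list and the brightest marker of each cell type. Other genes, such as the lowest of a transporter family, further markers of a list and *Atp7a*, were named after their values were seen. Some genes of the lists are not reported here and were left out of their counts. For 5 listed genes the array carries an older symbol. Promoter sequences are those of RefSeq (GRCm38.p6).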

Additional observations from a re-analysis of the deposited data

How the results depend on the processing

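No paired analysis was possible because each genotype has 1 array, and no replicate could be left out. *Trf* passed the limits for lower levels at both probes under all 10 alternatives that apply to probes (quantile normalisation, scaling by the median, quantile normalisation after normexp (offset 50), the authors' values, only probes above background on both arrays, no filter, a Z-score over all or the 200 nearest probes, the ratio limits alone, and a ratio of 2 or 0.5). Its log2 ratios ranged from −2.02 to −1.97 and from −2.22 to −2.15. *Cp* probe 3 passed under the same 10, at −1.36 to −0.71, and the ratio limits alone added *Cp* probe 4. *Slc39a14* did not pass with a Z-score over all probes or a ratio of 2 or 0.5, which each left 1 lower gene of the 10 in place of 2. With the probe of most RefSeq transcripts, chosen after seeing the data, 3 genes were lower because *Cp* was added. The lower count of other iron and haem genes, 2, became 1 with normexp and quantile normalisation, 0 with a Z-score over all probes, 0 with a ratio of 2 or 0.5, and 4 with the ratio limits alone, which also gave 1 higher gene (*Hp*). It was 4 with the mean over the probes of a gene, which added *Slc25a37* and *Slc39a8*. For zinc and copper genes the lower count of 0 became 1 with no filter (*Slc30a8*). Beyond the alternatives' own construction, the cause was not tested. The medians of the probes of the 10 genes, of these genes and of the lists of other iron and haem genes and other zinc and copper genes moved by less than the SD of 0.26 between probes of a gene. Scaling moved the median of all detected probes by at most 0.05. Signal over background limited *Cp* probe 5 and *Slc40a1* probe 2, which were not well above background on either array. Among the 16 detected probes, normexp and quantile normalisation moved *Cp* probe 3 most, from −1.31 to −0.71, and then *Cp* probe 4, from −0.75 to −0.33.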
